A study of Mus musculus with 6 samples.

Results

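The genes described here are 27 genes of inhibitory synapses, which signal through gamma-aminobutyric acid (GABA) or glycine. They were taken by symbol from a named list, which was drawn up with earlier results of these data known, out of 55359 genes in the deposited table. The list is a selection of the pathway, not all of it. It holds 11 subunits of the GABA-A receptor, 4 subunits of the glycine receptor, and 12 genes for making, packing, removing or anchoring these signals. All 27 symbols matched 1 row each, and 25 passed the expression filter, a mean of at least 1 FPKM (fragments per kilobase of exon, scaled to the library total) over the 6 libraries. Gabre and Slc6a5 did not pass it.

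RNA was sequenced from the habenula, a small paired nucleus above the thalamus, of C57BL/6 mice aged 2 months. The labels give 3 wild-type (WT) libraries and 3 libraries of Tet2 conditional knockout (Tet2 cKO) mice. The sources used here do not give the Cre line that drove the deletion, the exons removed or whether each library is 1 animal. P-values therefore measure the spread between these libraries, which may be technical. Library totals lay between 16089676 and 17917987 counts, which limits precision mainly for the rarest transcripts.

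Fast inhibition in the brain runs through chloride channels built of several subunits around a pore. GABA-A receptors usually combine alpha and beta subunits with a gamma or delta subunit, and the alpha and gamma or delta subunits set where the receptor sits and how it responds. Glycine receptors combine alpha subunits with the beta subunit Glrb, which binds the scaffold protein gephyrin. Whether opening these channels inhibits a neuron depends on the chloride gradient, which the cotransporters KCC2 and NKCC1 set. Most neurons of the habenula release glutamate, and much of their GABA input comes from other nuclei. TET2 oxidises 5-methylcytosine, which in mammals lies mostly at CG dinucleotides. DNA methylation was not measured here.

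Tet2 itself was no lower under the cKO label. WT replicates 1 to 3 held 3.45, 3.46 and 3.71 FPKM of Tet2, and the cKO-labelled libraries held 4.47, 4.02 and 3.96 FPKM. The whole-gene count keeps reads of exons that a deletion spares, and exons of Tet2 overlap Gm42567 on the other strand, so this count does not check the label, and directions below follow the labels. The 6 markers shared by habenula neurons were detected in each library, with a summed level of 150, 192 and 93.2 FPKM in WT replicates 1 to 3 and 167, 127 and 164 FPKM in Tet2 cKO replicates 1 to 3. WT replicate 3 was thus the lowest in these markers, and Tet2 cKO replicate 2 was the next lowest. Across all tested genes WT replicate 3 also stood apart, at 24.3 on the first principal component against -12.5 to 7.82 for the others. Choroid plexus markers were below WT in 8 of 8 cases and summed to 446 to 1391 FPKM in WT against 169 to 819 FPKM in cKO-labelled libraries. Ependymal markers were below WT in 7 of 7 cases, at 56.6 to 70.8 and 42.3 to 51.3 FPKM. Markers above and below 0 numbered 3 and 9 for medial habenula neurons, 4 and 3 for lateral habenula neurons, 0 and 5 for hippocampus, 7 and 1 for oligodendrocytes, 5 and 2 for microglia and 2 and 5 for vessels. Hippocampus markers summed to 51.1 to 61.1 FPKM in WT and 44.4 to 49.2 FPKM in cKO-labelled libraries, without overlap. In the mean of log2(FPKM + 1) over that list the groups overlapped, at 1.81 to 2.10 and 1.74 to 1.92. The edgeR test called 0 markers of all these lists. DESeq2 called the choroid plexus marker Calml4, and edgeR without the expression filter called 7 of 8 choroid plexus markers. A limit of that unfiltered fit is given in the last section. The part of these cells in the values below was not tested. In bulk RNA, fewer cells of a type and less RNA per cell cannot be told apart.

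No inhibitory synapse gene differed between the groups in the test. The edgeR quasi-likelihood test called 0 of 25 members at a Benjamini-Hochberg adjusted p under 0.05, as it called 0% of all 14539 tested genes. Each member had adjusted p = 0.9999 in it. DESeq2 and limma also called 0 members, and DESeq2 called 4 genes over the whole table. At an unadjusted p under 0.05 there were 0 members, where 2.57% of all tested genes passed. Levels in 1 member, Gabra5, did not overlap between groups, lying lower under the cKO label. Of tested genes 6.80% did not overlap, and 3.46% were lower in this way. The median log2 difference over the 25 was 0.05, with 15 above 0 and 10 below, beside a median of -0.0021 and 49.1% above 0 over all tested genes. What the members did show was a wide range of levels, and a set of them that differed by several times between libraries of the same group.

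**Figure D1:**
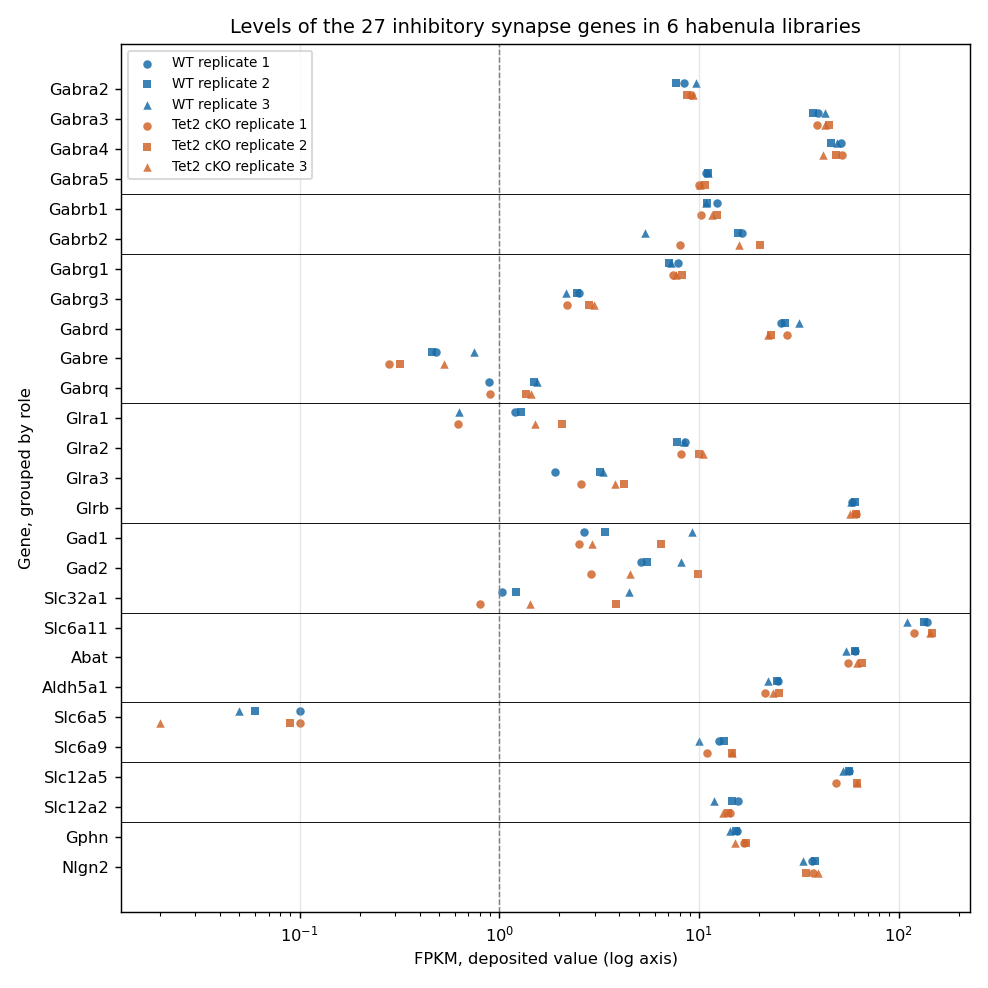
FPKM of each of the 27 genes (log axis) in each library, blue for WT and orange for libraries labelled Tet2 cKO, with the replicate given by the symbol. Lines divide the roles named in the text and the dashed line marks 1 FPKM. Slc6a11 lies near 100 FPKM and Slc6a5 at or under 0.10 FPKM, and the points of Gad1, Gad2, Slc32a1, Gabrb2 and Glra1 are spread within both groups.

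The supply side of GABA was uneven between libraries. In WT the level of Gad2 exceeded 49.8% of tested genes, that of Gad1 42.8% and that of Slc32a1 18.9%. Gad1 and Gad2 encode the 2 glutamate decarboxylases that make GABA, and Slc32a1 encodes the transporter that loads GABA and glycine into vesicles. All 3 lie on the plus strand of chromosome 2 but far apart, with 47859 kb between Gad2 and Gad1 and 88009 kb between Gad1 and Slc32a1 on GRCm38. Their upstream sequences are shown because these genes mark the neurons that release GABA and were highest in the same libraries. Each is RefSeq sequence of GRCm38.p6, from 250 bases before the RefSeq start up to that start, or up to an earlier base that GENCODE annotates as exon. GENCODE places a first exon of Gad1 further upstream, at 70553072, so the Gad1 stretch lies within the annotated gene. Capitals mark CG dinucleotides, of which the stretches hold 4, 5 and 12. They are Gad1 at chr2:70561879-70562041, Gad2 at chr2:22622077-22622204 and Slc32a1 at chr2:158610508-158610757, all on the plus strand.
Gad1: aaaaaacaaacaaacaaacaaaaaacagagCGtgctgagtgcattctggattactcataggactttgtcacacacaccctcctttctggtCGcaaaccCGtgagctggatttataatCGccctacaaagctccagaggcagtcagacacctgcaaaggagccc
Gad2: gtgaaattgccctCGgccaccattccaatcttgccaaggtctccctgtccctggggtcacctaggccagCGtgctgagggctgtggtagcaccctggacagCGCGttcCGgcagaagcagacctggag
Slc32a1: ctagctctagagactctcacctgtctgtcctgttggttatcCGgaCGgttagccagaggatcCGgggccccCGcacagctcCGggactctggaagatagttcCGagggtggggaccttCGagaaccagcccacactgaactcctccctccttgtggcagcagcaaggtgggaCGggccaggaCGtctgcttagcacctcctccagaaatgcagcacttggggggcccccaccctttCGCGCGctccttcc

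Gad1 stood at 2.66, 3.38 and 9.27 FPKM in WT replicates 1 to 3. In Tet2 cKO replicates 1 to 3 it was at 2.52, 6.47 and 2.92 FPKM. WT replicate 3 and Tet2 cKO replicate 2 were the high libraries, and the groups overlapped. Gad2 stood at 5.12, 5.49 and 8.13 FPKM in WT, with 2.89, 9.87 and 4.52 FPKM in the cKO-labelled libraries. Slc32a1 was at 1.03, 1.22 and 4.45 FPKM in WT, with 0.80, 3.85 and 1.42 FPKM in the cKO-labelled libraries. In each of the 3 genes the same pair of libraries, WT replicate 3 and Tet2 cKO replicate 2, was highest. That pair was highest in 4.50% of all tested genes. These are also the 2 libraries lowest in pan-habenula markers, as given above. In the summed lateral habenula markers they were the 2 highest, at 370.38 FPKM (WT replicate 3) and 332.79 FPKM (Tet2 cKO replicate 2). Gap43 held most of that sum. In the mean of log2(FPKM + 1) over that list Tet2 cKO replicate 2 was highest (4.09) and WT replicate 3 next to lowest (3.99). In that mean over medial habenula markers both were lowest, WT replicate 3 at 3.25 and Tet2 cKO replicate 2 at 3.42. The part of habenula tissue in the 3 genes was not tested.

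The highest library exceeded the lowest by 3.68-fold in Gad1, 3.42-fold in Gad2 and 5.56-fold in Slc32a1. Differences between groups were small against this spread. For Gad1 the log2 difference (Tet2 cKO minus WT) was -0.37 (SE 0.468, 95% interval -1.42 to 0.68). Gad2 differed by -0.12 (SE 0.371) and Slc32a1 by -0.16 (SE 0.626) on the same scale. Without WT replicate 3 all 3 turned to above 0, at 0.40, 0.13 and 0.85, and without Tet2 cKO replicate 2 they were at -0.92, -0.76 and -1.03. Exons of Slc32a1 overlap Gm14205 on the other strand, so its count may hold reads of both.

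Markers of GABA neurons other than the members were checked beside this. Of 20 such markers 9 passed the filter, 2 above 0 and 7 below, and edgeR and DESeq2 called 0. Their summed level was 184 to 239 FPKM in the WT libraries and 173 to 216 FPKM in cKO-labelled libraries, with Cck, which other neurons also express, holding most of it. WT replicate 3 was highest in that sum and Tet2 cKO replicate 2 was not (191 FPKM). In the mean of log2(FPKM + 1) over the 20 markers these libraries were the 2 highest, at 1.758 and 1.685. WT replicate 2 was close to the latter, at 1.681, and the others lay between 1.546 and 1.643. Transcription factors that define forebrain interneurons, Dlx1, Dlx2, Dlx5, Dlx6 and Lhx6, were at or under 0.17 FPKM in every library. Other markers of the list were well detected, with Pvalb at 17.3 to 24.85 FPKM, Nxph1 at 13.7 to 17.0 FPKM and Sst at 7.24 to 12.3 FPKM over the 6 libraries. Npy was at 1.12, 2.86 and 6.37 FPKM in the WT libraries and 3.04, 3.55 and 3.66 FPKM in the cKO-labelled libraries. Which neurons carried the Gad1 and Slc32a1 signal was not tested.

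**Figure D2:**
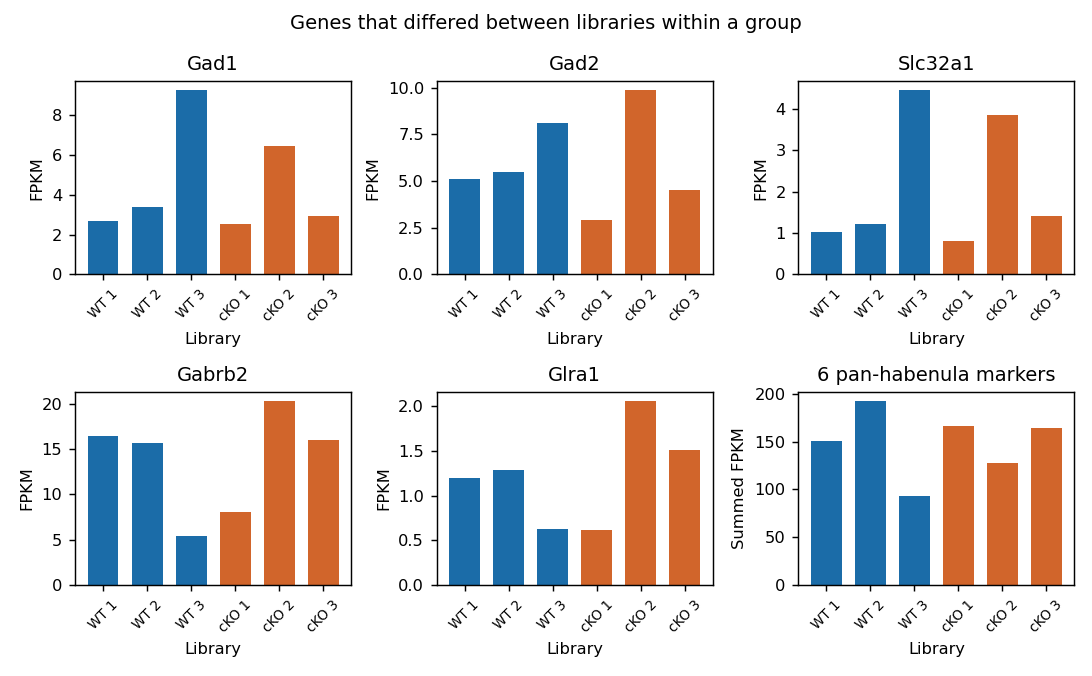
Level of 5 members (FPKM) and the summed FPKM of 6 pan-habenula markers in each library, blue for WT and orange for libraries labelled Tet2 cKO. Gad1, Gad2 and Slc32a1 are highest in WT replicate 3 and Tet2 cKO replicate 2, and Gabrb2 and Glra1 are lowest in WT replicate 3 and Tet2 cKO replicate 1.

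Removal of GABA was represented by abundant transcripts. Slc6a11, which encodes the GABA transporter GAT-3, found mainly on astrocytes, was the highest of all members per length, above 98.6% of tested genes in WT. It stood at 138, 134 and 110 FPKM in the WT libraries and at 120, 147 and 143 FPKM in the cKO-labelled libraries. The groups overlapped, and the log2 difference was 0.09 (SE 0.107, 95% interval -0.15 to 0.33). Abat encodes GABA transaminase, the first enzyme of GABA breakdown, and was at 60.4, 60.5 and 54.5 FPKM in the WT libraries and at 56.0, 65.7 and 61.9 FPKM under the other label. Aldh5a1 encodes the succinic semialdehyde dehydrogenase that acts next, and held 24.9, 24.7 and 22.3 FPKM in WT against 21.4, 25.2 and 23.5 FPKM. All 3 genes were lowest in WT replicate 3 and Tet2 cKO replicate 1. Log2 differences were 0.06 (SE 0.0808) for Abat and -0.04 (SE 0.0839) for Aldh5a1. Astrocyte markers, which could move with Slc6a11, were above 0 in 7 of 10 cases, and edgeR and DESeq2 called 0. Without the expression filter edgeR called 1, Aqp4, with the limit of that fit given in the last section. The summed level of the 10 markers was 601, 600 and 650 FPKM in the WT libraries and between 625 and 631 FPKM in the cKO-labelled libraries. WT replicate 3, lowest in Slc6a11, was highest in that sum, with Aldoc at 304 FPKM there. In the mean of log2(FPKM + 1) over the 10 markers it was lowest, at 5.31 beside 5.38 and 5.35 in WT replicates 1 and 2. Tet2 cKO replicates 1 to 3 were at 5.44, 5.46 and 5.44 in that mean, above every WT library, while the sums overlapped. The part of astrocytes in the Slc6a11 values was not tested.

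CG content before the start differed widely among the members. Of 27 members 23 had an entry among the RefSeq promoter windows (250 bases before to 50 after a start), 31 windows in all, and Gabrd, Glra1, Abat and Slc12a2 had none. The member windows held 0 to 42 CG dinucleotides with a median of 13, beside a median of 7 over all 32851 windows of that length. Both windows of Gabra3 held 0, as did 5.43% of all windows. Gphn held 42 and Slc6a11 held 32, and 9.52% of all windows held 32 or more. The upstream stretches of Gabra3 (chrX:72656920-72657169, minus strand) and Slc6a11 (chr6:114130991-114131240, plus strand) are printed to show the contrast, with CG in capitals. Both genes were abundant, so a window with 0 CG and one rich in CG both belonged to members of high RNA level. Transcription itself, and which start was used, were not measured.
Gabra3: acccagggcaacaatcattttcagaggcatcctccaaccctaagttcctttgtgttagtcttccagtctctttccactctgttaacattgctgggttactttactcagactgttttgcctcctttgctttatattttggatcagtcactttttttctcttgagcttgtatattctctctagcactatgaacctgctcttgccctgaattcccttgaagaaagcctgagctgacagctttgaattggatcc
Slc6a11: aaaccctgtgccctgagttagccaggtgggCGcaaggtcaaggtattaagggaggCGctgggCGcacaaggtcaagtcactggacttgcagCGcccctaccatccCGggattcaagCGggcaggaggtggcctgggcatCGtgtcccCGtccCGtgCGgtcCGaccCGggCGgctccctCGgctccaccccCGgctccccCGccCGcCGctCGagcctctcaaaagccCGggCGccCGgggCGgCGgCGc

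The letters TATAAA, searched on both strands, occurred in 5 member windows, those of Gabra3, Gabrb2, Gad1 and Glra2, and in 13.6% of all windows. The cyclic AMP response element TGACGTCA, also searched on both strands, was in 0 member windows and in 1.79% of all windows. No match says only that these letters are not in these windows.

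Among the alpha subunits, which with the beta subunits form the GABA binding site, Gabra4 and Gabra3 were the abundant pair. Gabra4, typical of receptors outside the synapse in thalamus and hippocampus, was at 51.7, 45.8 and 49.4 FPKM in the WT libraries and at 52.2, 48.8 and 41.8 FPKM in the cKO-labelled libraries. Gabra3 was at 39.5, 37.3 and 42.6 FPKM in WT, with 39.0, 44.6 and 42.6 FPKM in the cKO-labelled libraries. Neither gene separated the groups, with log2 differences of -0.05 (SE 0.0913) and 0.07 (SE 0.0814). Gabra5 stood at 10.8, 11.1 and 11.1 FPKM in the WT libraries and Gabra2 at 8.41, 7.69 and 9.70 FPKM, both lower per length than the pair. In cKO-labelled libraries Gabra5 was at 10.04, 10.77 and 10.08 FPKM and Gabra2 at 9.10, 8.74 and 9.30 FPKM. Every cKO-labelled value of Gabra5 lay below every WT value, by a margin of 10.77 against 10.81 FPKM at the nearest, and the log2 difference was -0.10 (SE 0.0799, unadjusted p = 0.229 in edgeR). Exons of Gabra5 overlap Gm9962 on the other strand.

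The beta subunits differed in how steady they were. Gabrb1 was at 12.3, 11.0 and 10.9 FPKM in the WT libraries and at 10.3, 12.3 and 11.7 FPKM in the cKO-labelled libraries, a log2 difference of -0.0027 (SE 0.0882). Gabrb2 was at 16.4, 15.7 and 5.40 FPKM in the WT libraries and at 8.07, 20.3 and 15.97 FPKM in the cKO-labelled libraries. WT replicate 3 and Tet2 cKO replicate 1 were low in it, and the others held 15.7 to 20.3 FPKM. Its log2 difference was 0.24 (SE 0.399, 95% interval -0.65 to 1.13), and leaving out WT replicate 3 or Tet2 cKO replicate 2 gave -0.12 and -0.06, while leaving out Tet2 cKO replicate 1 gave 0.53. Of 25 tested members 9 were lowest in that pair of libraries, a larger share than the 17.0% of all tested genes. The 9 were Gabrb1, Gabrb2, Gabrg3, Glra1, Slc6a11, Abat, Aldh5a1, Slc6a9 and Slc12a5. Thalamus neuron markers, which could carry Gabrb2, had 6 of 10 above 0. They summed to 484, 469 and 448 FPKM in the WT libraries and 482, 494 and 433 FPKM in the cKO-labelled libraries. Tet2 cKO replicate 3 was thus lowest in that sum and WT replicate 3 next lowest. The part of these neurons in the Gabrb2 values was not tested.

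Gabrd, the delta subunit that partners alpha 4 in receptors outside the synapse, was the most abundant of the remaining GABA-A subunits. WT libraries held 25.8, 26.9 and 31.7 FPKM and cKO-labelled libraries 27.5, 23.0 and 22.1 FPKM. Its unadjusted p was the smallest of the 25 members (log2 difference -0.23, SE 0.107, 95% interval -0.47 to 0.01, unadjusted p = 0.0629, edgeR adjusted p = 0.9999). Tet2 cKO replicate 1 lay among the WT values. Leaving out WT replicate 3 gave -0.12, and leaving out Tet2 cKO replicate 1 gave -0.32. Gabrg1, a gamma subunit, was at 7.85, 7.08 and 7.28 FPKM in the WT libraries and at 7.43, 8.26 and 7.68 FPKM in the cKO-labelled libraries. The related Gabrg3 was lower, at 2.51, 2.45 and 2.15 FPKM in the WT libraries and 2.19, 2.81 and 2.98 FPKM in the other group. Their log2 differences were 0.06 (SE 0.0800) and 0.16 (SE 0.124). Gabrq, the theta subunit, was near the filter at 0.89 to 1.54 FPKM over the 6 libraries and differed by -0.09 (SE 0.248). Gabre, the epsilon subunit, had 39, 35 and 63 counts in the WT libraries and 23, 27 and 45 counts in the cKO-labelled libraries. Without the filter Gabre differed by -0.58 on the log2 scale (edgeR unadjusted p = 0.0474, adjusted p = 0.970), where 3.50% of all genes had an unadjusted p under 0.05. The limit of the unfiltered fit given in the last section applies to this p-value. With edgeR's filterByExpr in its place the difference was -0.59 (edgeR unadjusted p = 0.0955, adjusted p = 0.99998).

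Neighbouring GABA-A genes differed widely in level. Gabrg1, Gabra2, Gabra4 and Gabrb1 lie in that order on chromosome 5 of GRCm38, with 115 kb between the first pair and 474 kb between Gabra2 and Gabra4. Gabra4 (71569749 to 71658308, minus strand) and Gabrb1 (71658113 to 72149037, plus strand) overlap at their 5′ ends by 196 bases in GENCODE, and their RefSeq starts lie 387 bases apart. Gabra4 was nonetheless at 49.0 ± 2.95 FPKM and Gabrb1 at 11.4 ± 0.787 FPKM in WT (SD, n = 3). The strand setting of the counting is not given, so reads of the shared bases cannot be assigned to either. On the X chromosome Gabra3 lies between Gabre and Gabrq, 158 kb and 168 kb from them. Its WT level was 39.8 ± 2.66 FPKM against 0.563 ± 0.162 and 1.31 ± 0.364 FPKM for these neighbours (SD, n = 3). Gabrg3 and Gabra5 are 20.5 kb apart on chromosome 7, at 2.37 ± 0.193 and 11.0 ± 0.164 FPKM in WT (SD, n = 3).

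Glycine receptor transcripts were dominated by the beta subunit. Glrb stood at 58.3, 60.2 and 58.1 FPKM in the WT libraries and at 60.9, 61.1 and 57.2 FPKM in the cKO-labelled libraries. It was the steadiest of the 25 tested members, with 1.07-fold between its highest and lowest library and a log2 difference of 0.01 (SE 0.0629, 95% interval -0.13 to 0.15). Among alpha subunits Glra2, the main form of the immature brain, was the highest, at 8.55, 7.77 and 8.46 FPKM in the WT libraries and 8.15, 10.1 and 10.4 FPKM in the other group. Glra3 was at 1.9, 3.21 and 3.29 FPKM in the WT libraries and at 2.57, 4.21 and 3.79 FPKM in the cKO-labelled libraries. Glra1, the main form of adult spinal cord and brainstem, was at 1.20, 1.29 and 0.63 FPKM in the WT libraries and at 0.62, 2.06 and 1.51 FPKM. In all 3 alpha genes Tet2 cKO replicates 2 and 3 lay above every WT library and Tet2 cKO replicate 1 did not. That pair of libraries was highest in 9 of 25 members, also in Gabra3, Gabrg3, Slc6a11, Abat, Slc6a9 and Slc12a5, and in 6.97% of all tested genes.

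Log2 differences of Glra1, Glra2 and Glra3 were 0.43 (SE 0.415), 0.20 (SE 0.111) and 0.33 (SE 0.223). None passed, with unadjusted p = 0.329, unadjusted p = 0.0999 and unadjusted p = 0.176 in edgeR. The size of these differences changed with the library left out. Without Tet2 cKO replicate 1 they were 0.78, 0.31 and 0.51, and 7 of 25 members had an unadjusted p under 0.05, where 3.20% of all tested genes did. The 7 were Glra2, Gabrd, Gabrg3, Glra3, Slc6a9, Glra1 and Slc12a5, and 0 of them passed the adjustment. Leaving out WT replicates 1, 2 and 3 or Tet2 cKO replicates 2 and 3 in turn gave 0 to 2 such members, where 2.41%, 2.94%, 5.95%, 1.95% and 1.57% of all tested genes passed. Without Tet2 cKO replicate 2 Glra1 was at 0.034 on the log2 scale, and Glra3 was at 0.11 without WT replicate 1. Exons of Glra1 overlap Gm12236 on the other strand.

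**Figure D3:**
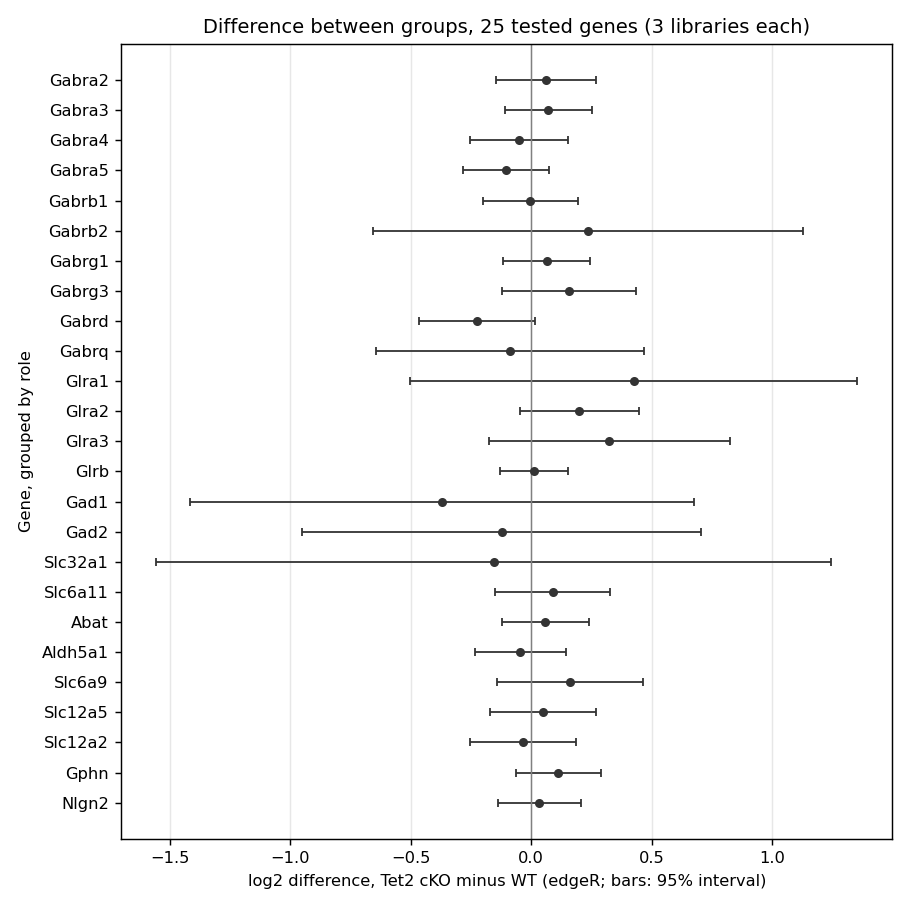
Log2 difference (Tet2 cKO minus WT, edgeR) of the 25 tested members, with bars for the 95% interval, 3 libraries a group. Every interval crosses 0, and the intervals of Slc32a1, Gad1, Glra1, Gabrb2 and Gad2 are the widest.

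The 2 glycine transporters differed widely in level. Slc6a9 encodes GlyT1, the transporter of astrocytes that clears glycine, and was at 12.6, 13.3 and 10.04 FPKM in the WT libraries and 11.0, 14.7 and 14.7 FPKM in the cKO-labelled libraries. Its log2 difference was 0.16 (SE 0.136), and its exons overlap B4galt2, Ccdc24 and Gm17114 on the other strand. Slc6a5 encodes GlyT2, the transporter that marks glycine-releasing neurons, and had 13, 7 and 7 counts in the WT libraries and 13, 12 and 2 counts in the cKO-labelled libraries. That is at most 0.10 FPKM. Among 5 markers of hindbrain and glycinergic neurons Hoxb5 and Hoxc4 had 0 FPKM in every library and the sum of the list was at or under 0.09 FPKM.

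Chloride transporters showed more KCC2 than NKCC1. Slc12a5 encodes KCC2, the neuronal transporter that exports chloride, and was at 56.7, 56.5 and 52.9 FPKM in the WT libraries and at 48.7, 62.1 and 62.2 FPKM in the cKO-labelled libraries. Slc12a2 encodes NKCC1, which imports chloride in many cell types, and was at 15.7, 14.6 and 11.96 FPKM in the WT libraries and at 14.3, 14.0 and 13.2 FPKM. Within each library Slc12a5 was 3.40 to 4.69 times Slc12a2 per length. The log2 ratio was 1.98 ± 0.150 in WT and 2.05 ± 0.247 in the cKO-labelled libraries (SD, n = 3 each), a difference of 0.065 (exact two-sided permutation p = 0.8, adjusted p = 1.0 over 2 ratios). The smallest p that 3 against 3 libraries allow is 0.1. NKCC1 is also abundant in choroid plexus, whose markers varied as given above, and its part in this ratio was not tested. The ratio of Gad1 to Gad2 was 0.520, 0.616 and 1.14 in WT and 0.872, 0.656 and 0.646 in the cKO-labelled libraries, with a log2 difference of 0.0060 (exact two-sided permutation p = 1.0, adjusted p = 1.0).

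At the postsynaptic site, Gphn encodes gephyrin, the scaffold under glycine receptors and many GABA-A receptors. It was at 15.6, 15.3 and 14.4 FPKM in the WT libraries and at 16.9, 17.2 and 15.2 FPKM in the cKO-labelled libraries. Nlgn2 encodes neuroligin 2, the adhesion protein of inhibitory synapses, and was at 36.7, 38.0 and 33.1 FPKM in the WT libraries and at 37.4, 34.3 and 39.4 FPKM. Both varied by at most 1.20-fold over the 6 libraries. Their log2 differences were 0.11 (SE 0.0792) and 0.03 (SE 0.0774).

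The members fell into a steady set and an uneven set. Spread within groups was measured by edgeR's biological coefficient of variation, the relative spread beyond counting noise. Its median was 9.48% over the 25 tested members and 9.69% over all tested genes. Slc32a1 had 51.8%, Gad1 39.1%, Gabrb2 33.9%, Glra1 32.8% and Gad2 31.4%, and even Gad2 exceeded 98.9% of tested genes. Glra3 and Gabrq had 19.1% and 20.2%, and the remaining 18 members lay between 6.81% (Glrb) and 12.2% (Slc6a9). The highest library was at least 2-fold the lowest in 6 of 25 members, namely Gabrb2, Glra1, Glra3, Gad1, Gad2 and Slc32a1, where 10.0% of all tested genes were.

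**Figure D4:**
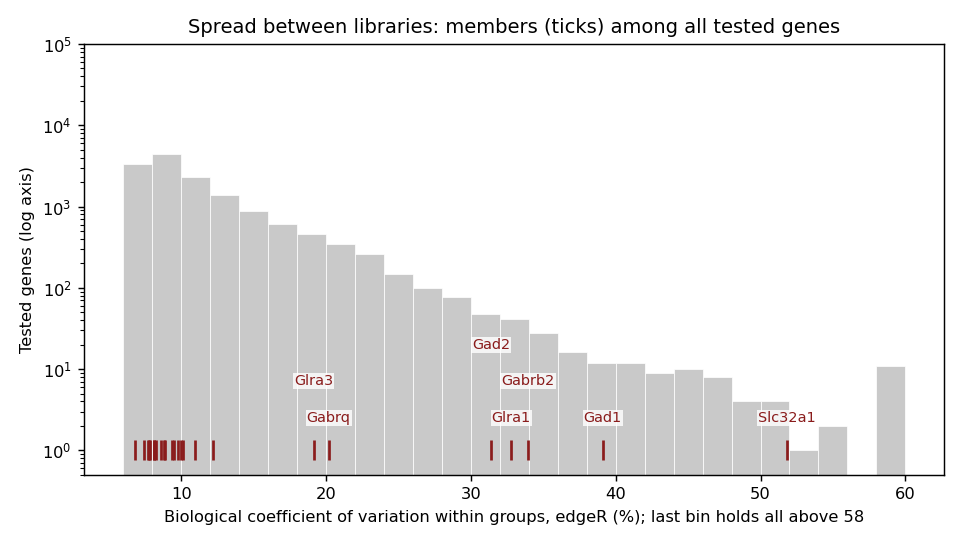
Number of tested genes (log axis) by edgeR's biological coefficient of variation within groups (percent), in bins 2 wide with all genes above 58 in the last bin. Ticks mark the 25 members, of which 18 lie between 6.81% and 12.2% and Slc32a1 lies at 51.8%.

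Other genes of inhibitory synapses gave the same count of 0 calls. A list of 72 such genes in the table, of receptor traffic, glycine cleavage, chloride and amino acid transport and synapse adhesion, had 59 tested genes. The median log2 difference was -0.0029, with 28 above 0 and 31 below, and 2 had an unadjusted p under 0.05. Gcsh, a protein of the glycine cleavage system, was at 30.4, 28.4 and 29.7 FPKM in the WT libraries and at 35.2, 32.5 and 33.3 FPKM in the cKO-labelled libraries (log2 difference 0.18, SE 0.0746, edgeR unadjusted p = 0.0363, adjusted p = 0.9999). Slc38a5, an amino acid transporter that carries glutamine and glycine, was at 1.96, 2.11 and 2.29 FPKM in the WT libraries and at 1.64, 1.37 and 1.77 FPKM (log2 difference -0.42, SE 0.183, unadjusted p = 0.0446, adjusted p = 0.9999). Groups did not overlap in either gene, and in 5 of the 59 genes in all. Both counts, 3.39% and 8.47% of the 59, were near the 2.57% and 6.80% of all tested genes. Of tested genes of the list, Mdga2 above 0 and Nrxn3 below 0, both of synapse adhesion, had the next smallest unadjusted p in each direction, at 0.12 and -0.17 on the log2 scale.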

How the data were processed

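Total RNA of 6 habenula libraries, 3 per group, was sequenced. The deposited table holds raw counts per gene for each library, which are whole numbers per the file headers and values. The authors' FPKM columns beside them could be remade from those counts, the exonic sizes and the column totals, to 2 decimals. The submitters' processing notes name the aligner HISAT2 2.0.1, build mm10, SAMtools 0.1.19, cutadapt 1.9.1 and FastQC 0.10.1. For the read counter, annotation and strand setting, the sources used here give nothing. The coordinates in the table differ from GRCm38, so positions were looked up by gene identifier in GENCODE mouse release 21 (GRCm38).

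The fit was edgeR 4.0.16 (quasi-likelihood, TMM, two-sided, no covariate) in R 4.3.3 on 14539 genes averaging 1 FPKM or more, with Benjamini-Hochberg adjustment over all of them, a threshold of 0.05 and 95% intervals. The common biological coefficient of variation was 10.4%. Differences are log2 values, Tet2 cKO minus WT. DESeq2 1.42.0 and limma 3.58.1 (on log2(FPKM + 1) and log2(FPKM + 0.1), and with library weights) were alternatives. The fit was tested on simulated data. Within-library ratios were compared by an exact permutation test. All 27 members are named, with Tet2, the 2 genes of smallest p per direction among the other pathway genes, and leading members of marker lists. Npy and the Dlx genes were chosen with their values in view. Members, the pathway list and the 13 marker lists were chosen with earlier results of these data known. A pathway name, Nlgn4l, matched no row. No library was a copy of another (chi-square per gene 3.74 to 17.3 between pairs).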

Additional observations from a re-analysis of the deposited data

How the results depend on the processing

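Members and other pathway genes gave 0 calls in every setting run. The count over the whole table was 0 in the main test, 4 with DESeq2, 49 without a low-value filter, 2 with filterByExpr, 2 with library weights and 0 to 3 when each library was left out. The cause was not tested. Of the 25 members run in every setting 12 kept their direction throughout and 13 did not, and Gabre and Slc6a5 were run only without the filter and with filterByExpr. Gabrb1 was at 0.0010 with DESeq2, 0.0010 with RLE factors, 0.0049 with library totals only, 0.0023 without a filter, 0.00018 with filterByExpr, and 0.0035 and 0.0036 with limma at pseudocounts 1 and 0.1. With library weights Gabrq was at 0.20, Glrb at -0.0031, Gad1 at 0.19 and Slc32a1 at 0.50. Leaving out each library gave -0.016 to 0.17 for Gabra2, -0.12 to 0.037 for Gabra4, -0.061 to 0.071 for Gabrb1, -0.12 to 0.53 for Gabrb2, -0.30 to 0.10 for Gabrq and -0.0036 to 0.046 for Glrb. It gave -0.92 to 0.40 for Gad1, -0.76 to 0.20 for Gad2, -1.03 to 0.85 for Slc32a1, -0.10 to 0.020 for Aldh5a1, -0.0068 to 0.16 for Slc12a5, -0.13 to 0.057 for Slc12a2 and -0.010 to 0.087 for Nlgn2. The log2 ratio of Slc12a5 to Slc12a2 differed by -0.028 to 0.21 and that of Gad1 to Gad2 by -0.22 to 0.34, and the latter was at -0.013 on log2(FPKM + 1). The labels do not say whether replicate numbers pair the libraries. Deviations of same-numbered libraries correlated at -0.051, 0.17 and -0.084 over 14539 genes, and those of other pairs at -0.20 to 0.20. With 3 libraries a group these values cannot settle whether same-numbered libraries shared a batch. With the replicate number as a block 0 genes and 0 members were called, and 346 genes against 374 had an unadjusted p under 0.05. At an unadjusted p under 0.05 there were 4 members without a filter (Glra3, Gabrd, Gad1 and Gabre, against 3.50% of all genes), 3 with library weights (Glra3, Glra2 and Gabrd, against 6.62%), 1 with the block (Glra3, against 2.38%) and 0 with filterByExpr (against 3.10%). Without a filter the log2 difference of Gad1 stayed at -0.37, but its edgeR unadjusted p was 0.0368 against 0.447 in the main test. For Glra3 it was 0.0101 against 0.176, while for the steady Gabra5 it rose to 0.367 from 0.229. P-values of the unfiltered fit thus follow the spread of each gene less than those of the main test. Low counts limit Slc6a5 and Gabre, which the filter left out.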
